A study of Sus scrofa with 6 samples.

Results

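The genes described here are 8 genes of the cell cycle and the DNA damage checkpoint, CDK6, CENPF, NEK2, DTL, ATM, CHEK1, MRE11 and MDM4. They were found by matching these symbols to the Ensembl identifiers of a deposited count table, and all 8 were among its 1780 genes. RNA had been sequenced from 6 whole embryos of the pig cross Landrace x Yorkshire x Duroc (LYD), taken at embryonic day 21. The 3 controls were untreated, and how they were conceived is not described in the labels used here. The 3 parthenotes had only maternal chromosomes: electric pulses had started the development of unfertilised oocytes, and a pair of LYD surrogate gilts carried them. The labels do not say which embryos shared a dam or litter, or the sex of the controls. With only maternal chromosomes, the parthenotes carried no Y chromosome. Since a pair of gilts carried the 3 parthenotes, some of these shared a surrogate. A p-value here therefore measures only the spread between these embryos, which are not all from separate dams. A difference in dam, sex, handling or stage cannot be told apart from the missing paternal genome. The comparison asked whether RNAs of proliferation or of the damage response differed between parthenotes and controls.

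Cells pass from G1 into S phase when D-type cyclins activate the kinases CDK4 and CDK6, which phosphorylate the retinoblastoma protein and release E2F transcription factors. Genes of mitosis such as CENPF and NEK2 are transcribed mainly in G2 and M phase, so their RNA in a tissue rises with its share of dividing cells. Broken or stalled DNA is sensed by complexes that contain MRE11 and signalled by the kinases ATM and ATR, with CHEK1 acting below ATR, and p53, which MDM2 and MDM4 hold in check, halts the cycle or triggers cell death. Much of this signalling acts on proteins by phosphorylation and degradation, which RNA counts do not measure.

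Of the 7 members that were tested, 4 lay above 0 and 3 below 0 in log2 fold change of parthenote against control. Of these 7, 0 passed the test. CDK6 came closest, at 1.43-fold higher in parthenotes, and was the one member whose 3 parthenotes all lay above the 3 controls. The other 6 tested members had fold changes between 0.932 and 1.06. CHEK1 had 14 reads over the 6 libraries and was left out of the test by a filter on low counts. Counts were tested by the quasi-likelihood method of edgeR, with p-values adjusted by Benjamini-Hochberg over 807 tested genes and a threshold of 0.05. Of all 807 genes 42 were called, or 5.20%, so 0 of 7 is close to that background and is not a result about these genes.

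Each library held 1193714 to 1484193 counted reads, and the 8 genes took 1.03% to 1.36% of them. The placed genes of the table lie on chromosome 9, with the exception of 1 symbol, so CPM here means counts per 1000000 of the reads counted in these genes, scaled by TMM. Levels of different genes are not compared, since transcript lengths were not used here. PEG10, which is expressed from the paternal copy, had 25305 to 34078 CPM in the 3 controls and 10.1 to 27.5 CPM in the 3 parthenotes, a difference in the direction that the labels give. One unnamed gene, ENSSSCG00000014726, took 8.29% to 20.8% of the reads, with the highest share in control 1 and parthenote 1. In bulk samples such as these, fewer cells of a type and less RNA per cell cannot be told apart.

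**Figure D1:**
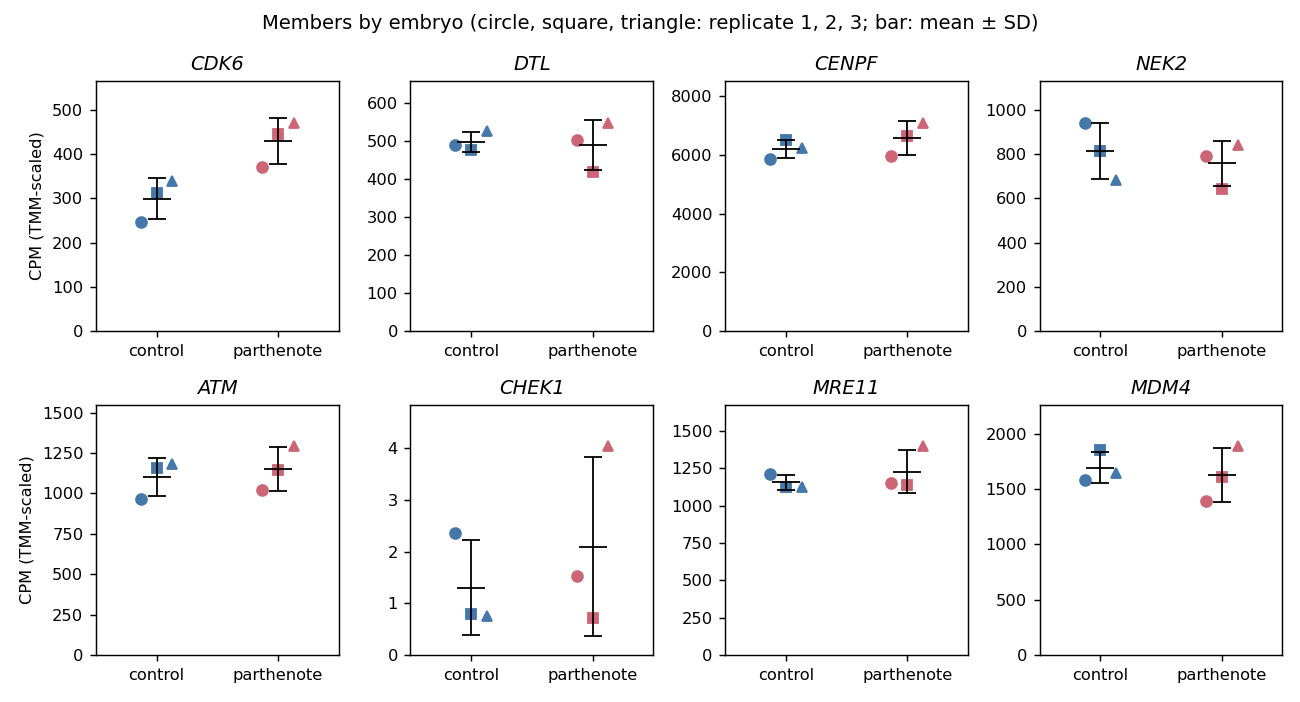
TMM-scaled CPM of the 8 members in each embryo, 1 panel per gene, each y axis starting at 0; points are embryos (circle, square and triangle for replicate 1, 2 and 3) and black bars are the mean ± SD of 3. CDK6 is the one panel in which the parthenotes (371 to 471 CPM) all lie above the controls (247 to 339 CPM); CHEK1 lies near 0 throughout.

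CDK6, the G1 kinase, had 247, 312 and 339 CPM in control 1, 2 and 3, and 371, 446 and 471 CPM in parthenote 1, 2 and 3. The lowest parthenote was thus above the highest control. Groups that do not overlap were found for 28.0% of all tested genes, with the parthenotes higher in 13.8%, so this separation was common on the chromosome. The mean was 300 ± 47.1 CPM in controls and 429 ± 52.1 CPM in parthenotes (SD, n = 3 each). Its log2 fold change was 0.52 ± 0.15 (SE), with a 95% interval of 0.18 to 0.86, which is 1.13-fold to 1.82-fold. The unadjusted p was 0.00762 and the adjusted p in edgeR was 0.0946, so CDK6 did not pass. By unadjusted p under 0.05, CDK6 was 1 of 7 members, beside 21.7% of all tested genes. RefSeq places CDK6 at 72510858 to 72765631 of chromosome 9 in Sscrofa11.1 and lists it there with the biotype lncRNA, although the gene encodes a protein kinase in mammals.

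The call of CDK6 depended on the processing. Control and parthenote libraries carry the same replicate numbers, though the labels do not state that equal numbers are pairs. By these numbers parthenote exceeded control by 0.58, 0.51 and 0.47 on the log2 CPM scale for number 1, 2 and 3. Since the groups do not overlap, the parthenote would be higher under any pairing. With the replicate number as a block, which assumes that pairing, the log2 fold change of CDK6 was 0.52 ± 0.10 and its adjusted p in edgeR 0.0253. CDK6 also passed in DESeq2 (adjusted p = 0.0399) and in edgeR without a filter on low counts (0.0445). Over all 18 alternatives the adjusted p ran from 0.0253 to 0.264, the highest with library totals as the only scaling. Its log2 fold change stayed between 0.40 and 0.61, the lowest without control 1 and the highest without control 3.

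**Figure D2:**
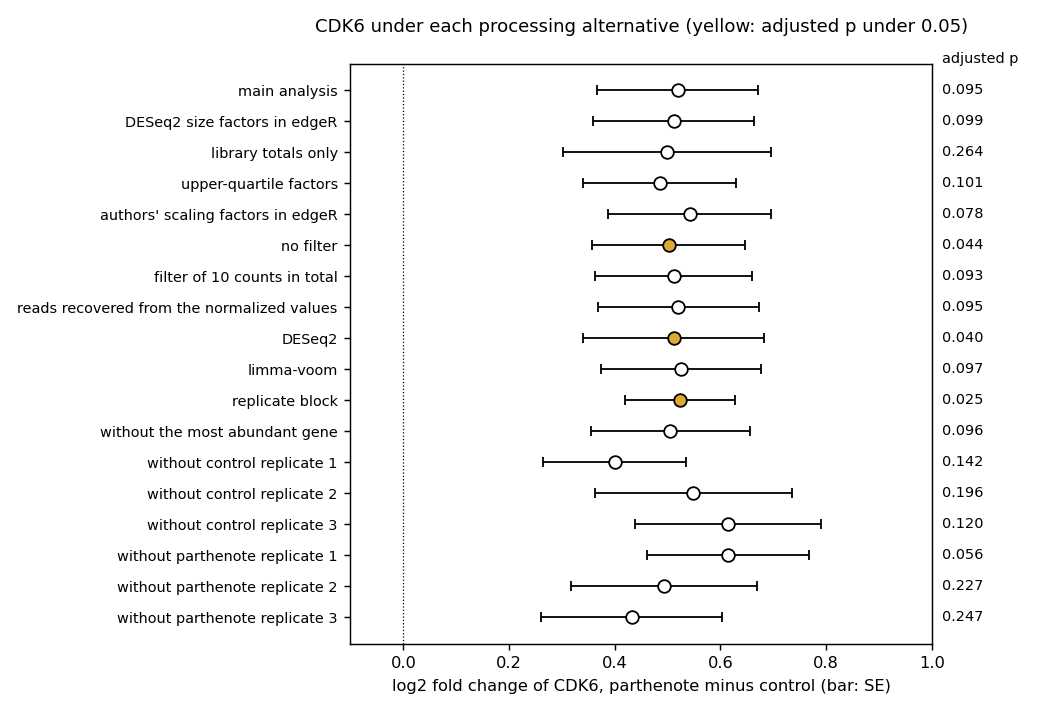
Log2 fold change of CDK6, parthenote minus control, in the main analysis and under 17 alternative settings (x axis; bars are SE), with the adjusted p printed at the right. All values lie between 0.40 and 0.61, and the 3 yellow points are those with an adjusted p under 0.05; a threshold of 0.01 is not drawn because it leaves the value as it is.

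Some tissue markers passed the test between the same groups. Of a list of 8 nervous system genes 5 were in the table, and 4 of these 5 rose (NRCAM, ROBO3, MAP6 and FEZ1), with a median log2 fold change of 0.49 over the 5. Their summed level was 7603 to 8848 CPM in controls and 10247 to 12094 CPM in parthenotes. Of 4 kidney genes 4 fell, from a summed 1965 to 2281 CPM in controls to 500 to 585 CPM in parthenotes. HBB was the 1 gene of a red cell list of 8 that was matched by symbol. Its level was 873 to 2065 CPM in controls and 102 to 575 CPM in parthenotes, without passing (edgeR, adjusted p = 0.189). Genes without a symbol could not be matched to a list, so other red cell genes may be in the table. Of 3 measured liver and yolk sac genes 1, APOC3, rose (2.12-fold; edgeR, adjusted p = 0.0178), and the 3 summed to 29039 to 33808 CPM in controls and 26128 to 51368 CPM in parthenotes. Of 2 endothelial genes 0 passed, with log2 fold changes of -0.42 for ESAM and -0.01 for ETS1. Their sum was 3112 to 3303 CPM in controls and 2957 to 3154 CPM in parthenotes. COL1A2 of connective tissue had a log2 fold change of 0.00 and MYOG of skeletal muscle one of 0.15, and neither passed. The immune genes CD3D and CD3E had 0 to 2.35 CPM in any library. The part of tissue makeup in the CDK6 values was not tested.

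Of the replication genes, DTL encodes the substrate receptor of the CRL4 ubiquitin ligase that destroys the licensing factor CDT1 once replication begins. Its levels were 492, 476 and 527 CPM in control 1, 2 and 3 and 504, 420 and 549 CPM in parthenote 1, 2 and 3. Parthenotes held both the lowest and the highest value, and the groups overlapped. The log2 fold change was -0.02 ± 0.12, with a 95% interval of -0.30 to 0.26 (edgeR, adjusted p = 0.951). RefSeq places DTL at 131225840 to 131275426, where a pseudogene at 131265552 to 131267230 lies within its span.

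CENPF, a large protein of the kinetochore and nuclear matrix that accumulates in G2, had 5878, 6505 and 6225 CPM in the 3 controls and 5958, 6647 and 7098 CPM in the 3 parthenotes. The groups overlapped. By replicate number, a pairing that the labels do not state, the parthenote was higher by 0.02, 0.03 and 0.19 on the log2 CPM scale. Its log2 fold change was 0.08 ± 0.11, and the 95% interval ran from 0.895-fold to 1.25-fold. It was 0.01 without parthenote 3, 0.05 without control 1 and 0.15 without parthenote 1. With 7459 to 10549 reads per library, CENPF was the most deeply counted member. It lies at 128948386 to 129012241, and a lncRNA annotated at 128949393 to 129002131 overlaps it. The library kit does not mark strand, so strand cannot separate the reads where such a pair overlaps. Only whole gene spans were compared here, not exons.

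NEK2, a centrosomal kinase that separates the centrosomes at the onset of mitosis, did not follow CENPF. It had 942, 817 and 686 CPM in control 1, 2 and 3 and 791, 644 and 842 CPM in parthenote 1, 2 and 3. Control 1 was the highest library for NEK2 and the lowest for CENPF. The log2 fold change was -0.10 ± 0.14, with a 95% interval of -0.42 to 0.22 (edgeR, adjusted p = 0.722). NEK2 had the widest spread of the tested members among controls (SD 15.8% of the mean), next to CDK6 (15.7%). Without control 1 its log2 fold change was 0.02, and without parthenote 2 it was 0.01. NEK2 lies at 131547044 to 131560527, 271.6 kb beyond DTL.

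Of the damage kinases, ATM, which is activated at double-strand breaks, had 964, 1158 and 1179 CPM in controls and 1019, 1143 and 1291 CPM in parthenotes. Library 1 was the lowest of each group, and the groups overlapped. The log2 fold change was 0.07 ± 0.11, with a 95% interval from 0.875-fold to 1.25-fold. It was -0.02 without control 1 and -0.04 without parthenote 3. ATM lies at 36620656 to 36759555, with no other RefSeq gene over its span.

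CHEK1, the effector kinase of the replication checkpoint, had 3, 1 and 1 reads in control 1, 2 and 3 and 2, 1 and 6 reads in parthenote 1, 2 and 3. In this table only parthenote 3 exceeded a floor of 3 reads, which corresponds to 2.02 to 2.36 CPM. The deposited normalized values correspond to slightly other reads, 4, 2 and 1 in controls and 2, 2 and 6 in parthenotes, or 7 against 10. In the count table the summed reads were 5 in controls and 9 in parthenotes, a ratio of 1.65 per counted read with an exact 95% interval of 0.496 to 6.26 that covers counting error only. A difference was not detectable with so few reads. The gene, ENSSSCG00000015215, lies at 52759224 to 52790878 in RefSeq, and how its reads were assigned was not stated in the labels.

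MRE11, the nuclease of the complex with RAD50 and NBN that binds broken DNA ends, had 1214, 1126 and 1128 CPM in controls and 1152, 1137 and 1397 CPM in parthenotes. Parthenote 3 stood above the other 5 libraries, which lay between 1126 and 1214 CPM. The log2 fold change was 0.09 ± 0.10, with a 95% interval of -0.13 to 0.31. Without parthenote 3 it was -0.03. MRE11 lies at 26572352 to 26634596.

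MDM4, a relative of MDM2 that binds p53 and blocks its transcriptional activity, had 1581, 1851 and 1644 CPM in controls and 1391, 1605 and 1884 CPM in parthenotes. Both the lowest and the highest value belonged to parthenotes. Parthenote minus control was -0.18, -0.21 and 0.20 on the log2 CPM scale for number 1, 2 and 3, a pairing that the labels do not state. Its log2 fold change was -0.06 ± 0.12, with a 95% interval of -0.33 to 0.22. It was 0.01 without control 2 and 0.05 without parthenote 1. MDM4 lies at 65175488 to 65219747.

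For CENPF, ATM, MRE11 and MDM4 edgeR gave adjusted p-values of 0.711, 0.786, 0.654 and 0.825. The 95% intervals of the 6 members other than CDK6 and CHEK1 together spanned -0.42 to 0.33 in log2 fold change. The median log2 fold change of the 7 tested members was 0.07, beside 0.02 over all 807 genes. The median size of the change, without its sign, was 0.08 for the members and 0.19 for all genes. Such a size also depends on the precision of each gene, with a median SE of 0.12 for the members and 0.14 for all genes. The smaller size is thus not read as a trait of the members. Since a p above the threshold does not show that levels were alike, the intervals give the sizes of change that these embryos leave possible.

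Parthenote 3 was the highest library for 6 of the 7 tested members, all but NEK2, whose highest was control 1. Over all tested genes parthenote 3 was the highest for 17.8%. Averaged over the 7 members, log2 CPM in parthenote 3 lay 0.21 above each gene's own mean. The other 5 libraries lay between -0.09 and 0.00, with parthenote 1 at -0.06 and parthenote 2 at -0.03, inside the range of the controls. Without parthenote 3 the median log2 fold change of the members was -0.04. This library also had the most counted reads, 1484193, and its CPM values are scaled for that. What sets this embryo apart in these genes was not tested.

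**Figure D3:**
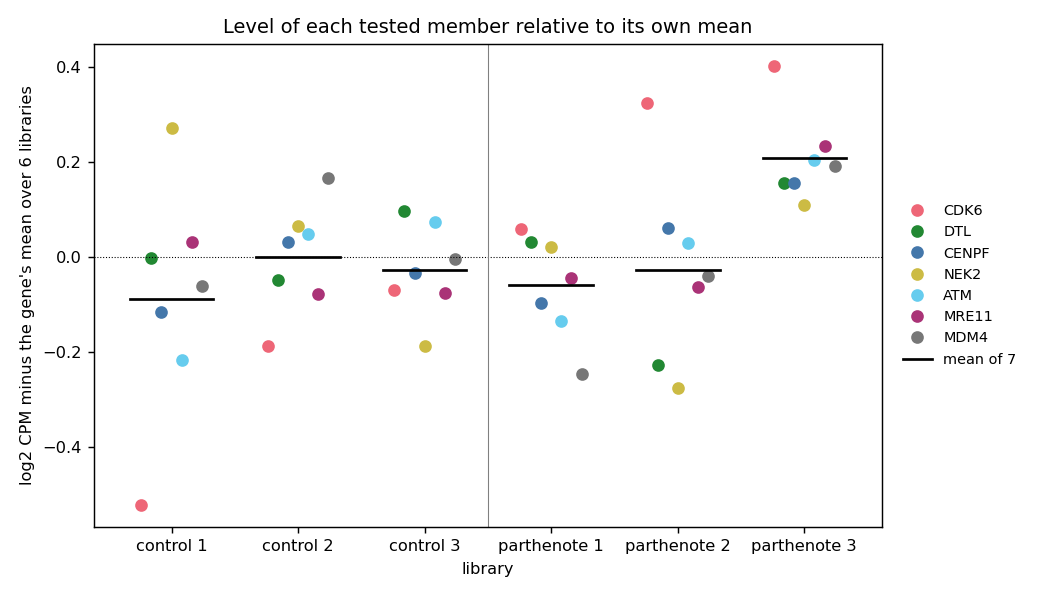
Log2 CPM of each tested member minus its mean over the 6 libraries (y axis), by library (x axis); black lines are the mean of the 7 members in that library. The line lies at 0.21 in parthenote 3 and between -0.09 and 0.00 in the other 5, and CDK6 runs from -0.52 in control 1 to 0.40 in parthenote 3.

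Other genes of the same pathways were taken from 5 lists. Besides the members they named 284 genes, of which 20 were in the table and all 20 were tested. Of these 20, 10 lay above 0 and 10 below 0, 0 rose and 1, ENDOD1, fell. At an unadjusted p under 0.05 there was also 1 of 20, beside 21.7% of all genes, and DESeq2 and limma-voom called 1 each. Their median log2 fold change was -0.01. Beside the 5.20% of all genes that were called, 1 of 20 is no more than the background. The lists are not complete. Some tested genes of the centromere, the anaphase-promoting complex, the damage response and the p53 pathway are on none of them. These counts therefore describe the listed genes only.

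In the list of G1 and S-phase entry, CDK6 was joined by CDK14, a cyclin Y-dependent kinase, CUL5, a cullin scaffold of ubiquitin ligases, and NPAT, which activates histone genes in S phase. Their log2 fold changes were 0.04 ± 0.08, -0.05 ± 0.08 and 0.08 ± 0.11, and none passed. Among replication genes, RRM1, the large subunit of ribonucleotide reductase, stood at 4828 ± 248 CPM in controls and 4351 ± 404 CPM in parthenotes (SD, n = 3 each), a log2 fold change of -0.15 ± 0.11. It was -0.09 without parthenote 2. POLD3, a subunit of DNA polymerase delta, had one of 0.07 ± 0.09, and ORC5 of the origin recognition complex one of 0.03 ± 0.20. Of the 5 tested genes of this list, DTL included, 0 passed, 3 lay above 0 and 2 below.

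The mitosis list had 8 tested genes including CENPF and NEK2, of which 0 passed, 5 lay above 0 and 3 below, with a median of 0.03. CEP295, a centriole protein gene, had the lowest adjusted p of them, with 1102 ± 162 CPM in controls and 1335 ± 164 CPM in parthenotes (log2 fold change 0.28 ± 0.13, edgeR, adjusted p = 0.263). It was 0.16 without control 1 and 0.18 without parthenote 3. ZW10, which recruits dynein to the kinetochore, had a log2 fold change of 0.01 ± 0.10. NCAPD3, a subunit of condensin II, had one of 0.07 ± 0.13.

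ENDOD1, which encodes an endonuclease-domain protein and is neither a checkpoint kinase nor a core repair factor, was the one listed pathway gene that fell. It had 812, 724 and 806 CPM in controls and 492, 527 and 565 CPM in parthenotes, with no overlap. Parthenotes lay below controls in this way for 14.3% of all tested genes. Its log2 fold change was -0.57 ± 0.10 (edgeR, adjusted p = 0.0139, n = 3 each). The adjusted p was 0.0654 without control 3. H2AX, the histone variant phosphorylated around breaks, had a log2 fold change of -0.13 ± 0.14, and USP28, a deubiquitinase that acts on p53 signalling, one of -0.05 ± 0.09; neither passed.

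The p53 list had 5 tested genes, MDM4 among them, and 4 of the 5 lay below 0, beside 384 of all 807 genes. None passed, and the median log2 fold change was -0.18. TBRG1, a p53-stabilising growth regulator, averaged 709 ± 21.4 CPM in controls against 619 ± 24.1 CPM in parthenotes. EI24, a p53-induced gene of the endoplasmic reticulum, had 244 ± 32.4 and 195 ± 25.5 CPM (SD, n = 3 each). In both genes the 3 parthenotes lay below the 3 controls, with log2 fold changes of -0.20 ± 0.09 and -0.33 ± 0.15 and adjusted p-values of 0.245 and 0.258 in edgeR. Such a separation was found in 3 of the 20 listed genes that are not members (15%), beside 14.3% of all tested genes. EI24 was at -0.21 without control 1. PPP2R1B, a scaffold subunit of the phosphatase PP2A, had a log2 fold change of -0.18 ± 0.11, which was -0.27 without parthenote 1 and -0.12 without parthenote 3. CASP1, named after its values were seen, had 7.09 to 26.8 CPM per library and a log2 fold change of 0.57 ± 0.55.

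**Figure D4:**
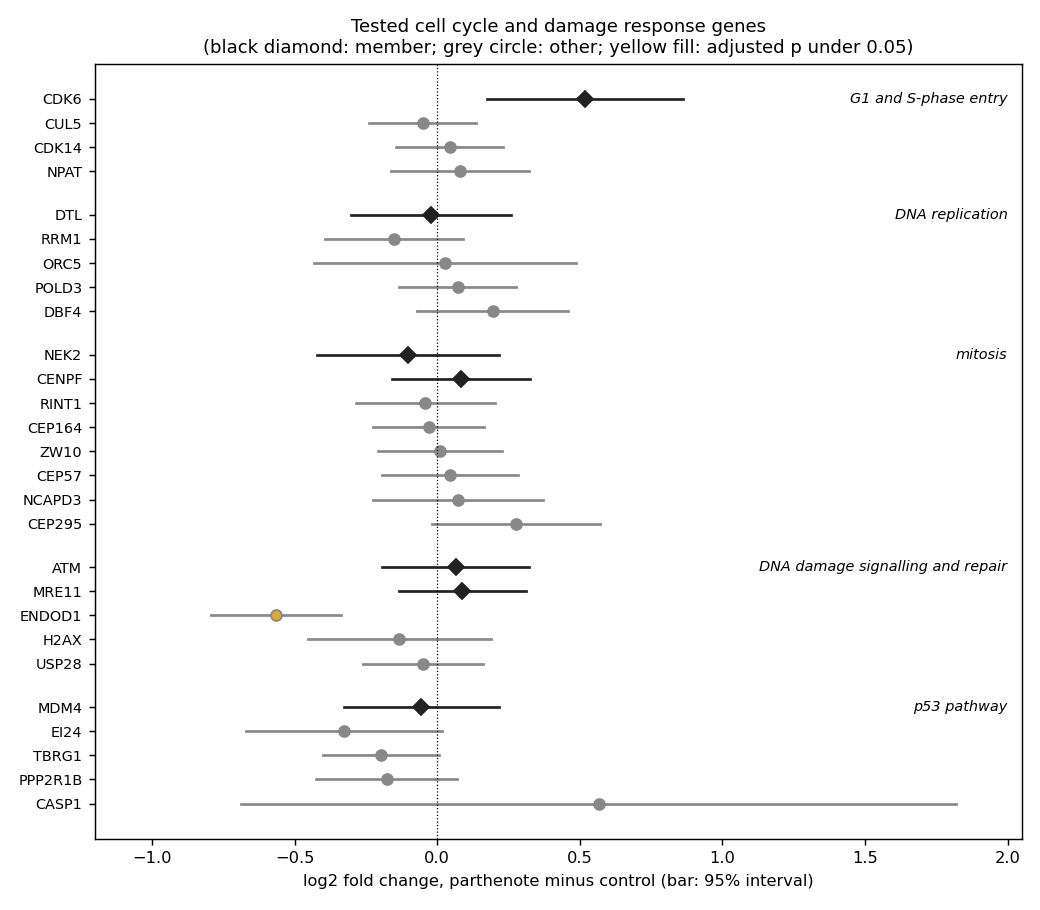
Log2 fold change, parthenote minus control (x axis), of each tested gene of the 5 pathway lists, with 95% intervals as bars; black diamonds are members and grey circles other genes. ENDOD1, filled in yellow at -0.57, is the one gene with an adjusted p under 0.05, and among the members only the interval of CDK6 lies wholly to one side of 0.

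Among 607 other tested genes with a symbol and at least 20 CPM on average, those with a level pattern most like the mean of the 7 members over the 6 libraries were TPR, ALG9 and NPAT. Likeness was the mean absolute difference of log2 CPM, each gene centred on its own mean, and was 0.03, 0.04 and 0.04. TPR, a nuclear pore protein gene, had 4715 to 4914 CPM in 5 libraries and 5343 CPM in parthenote 3. Of the members, CENPF lay nearest to the mean pattern, at 0.04, and CDK6 farthest, at 0.22.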

How the data were processed

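RNA of 6 whole embryos was made into unstranded TruSeq RNA v2 libraries, per the labels' protocols. HISAT2 2.1.0, SAMtools 1.9 and Sscrofa11.1 are named in the submitters' processing notes; for the counting tool and the annotation, nothing is given in the sources used here. In the deposited table, whole-number counts of reads per gene stand without normalization. The deposited files per sample hold normalized signal for 1190 genes, and 100% of these values came within 0.01 of a whole read times 1 factor per sample (0.916 to 1.05).

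Of 1780 genes, 779 have a symbol; 687 of the 688 found by symbol in RefSeq's Sscrofa11.1 table lie on chromosome 9. The counts went through edgeR 4.0.16 in R 4.3.3 (filterByExpr, minimum count 10, minimum total 15, TMM, robust quasi-likelihood fit, Benjamini-Hochberg over 807 genes). SE and 95% intervals come from that test. The fit was tested on simulated data. Alternatives used DESeq2 1.42.0, limma 3.58.1, other scalings and filters, the reads recovered from the normalized signal, and each library left out. Each library's deviations from its group mean, over 807 genes, correlated at 0.36, 0.27 and 0.15 between libraries of the same number, all above 0.1. Control 3 and parthenote 2, of different numbers, were as close as pair 3, at 0.14, and the other 5 different-number pairs ran from -0.30 to 0.07. Deviations from a group mean cancel out within the group, so these correlations depend on one another. The numbers were taken to pair the samples in the blocked alternative, though the labels do not state such a pairing. The same data served to check the pairing and then to fit with it, so the block is no independent check. No libraries of a group agreed within sampling noise (chi-square per degree of freedom 6.98 to 143).

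The members and gene lists were chosen with earlier results of these data known. Named genes were all members, every called gene of the pathway lists, the 3 most abundant others of each list, and the 3 genes of most similar pattern. Promoter and protein sequences were not analysed here.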

Additional observations from a re-analysis of the deposited data

How the results depend on the processing

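The number of called members, 0, became 1 (CDK6) without a filter, in DESeq2 and with the replicate block, and was 0 when any single library was left out (0 to 0); the block changed no other call of a member or of ENDOD1. Over all genes 65 were called in DESeq2, 17 at an adjusted p of 0.01 and 17 to 55 with a library left out (lowest without control 2, highest without parthenote 1; 18 without control 3, 26 without parthenote 2, 22 without parthenote 3), beside 42. The block called 55. The number of called pathway genes, 1, became 0 at 0.01, stricter by construction, and 0 without control 3 (0 to 1 with a library left out). The median of the members ran from -0.04 to 0.13 with a library left out. For DESeq2, the filter and single libraries the cause was not tested. Of 126 alternative values of the 7 tested members 10 changed sign, and of 306 of the other named genes 22, each of them of a gene that did not pass. With a library left out, log2 fold changes ran from -0.21 to 0.016 for NEK2, -0.12 to 0.081 for DTL, -0.040 to 0.15 for ATM, -0.030 to 0.14 for MRE11, -0.19 to 0.045 for MDM4 and 0.0075 to 0.15 for CENPF. They ran from 0.0030 to 0.089 for CDK14, 0.011 to 0.12 for POLD3, -0.094 to 0.011 for CUL5, -0.0048 to 0.12 for NPAT, -0.19 to 0.18 for ORC5, -0.038 to 0.088 for ZW10, -0.043 to 0.16 for NCAPD3, -0.12 to 0.023 for USP28, -0.24 to 0.021 for H2AX, -0.049 to 0.061 for TPR and -0.062 to 0.083 for ALG9. The remaining sign changes were small. DTL was 0.0002 with the authors' scaling factors. With upper-quartile factors ORC5, ZW10, TPR and ALG9 were -0.0089, -0.023, -0.0050 and -0.0049. ZW10 was -0.0004 with library totals, -0.0070 without a filter and -0.0029 without the most abundant gene. CHEK1 had a log2 fold change of 0.66 ± 0.92 without a filter and 0.67 ± 0.86 with a filter of 10 counts in total, neither called. CHEK1, with 1 to 6 reads per library, was left out of the main analysis by its filter on low counts. The cause of its low count was not tested.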

Other observations

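Ratios of reads between members within a library do not depend on the scaling. They are given as values without a test, since they were chosen after the levels were seen. For CDK6 over CENPF, the 3 controls had 0.0421, 0.0480 and 0.0545 reads per CENPF read, and the 3 parthenotes 0.0623, 0.0671 and 0.0664. NEK2 over CENPF was 0.160, 0.126 and 0.110 in controls and 0.133, 0.0969 and 0.119 in parthenotes, so these groups overlapped. MRE11 over ATM was 1.26, 0.972 and 0.956 in controls and 1.13, 0.994 and 1.08 in parthenotes. DTL over NEK2 was 0.522, 0.583 and 0.769 in controls and 0.637, 0.652 and 0.652 in parthenotes. The groups overlapped in both of these ratios too.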
